A study of Mus musculus with 6 samples.

Results

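The genes described here are 35 genes that serve protein folding in the endoplasmic reticulum (ER): its chaperones, the thioredoxin-fold enzymes that make and rearrange disulfide bonds, the machinery that removes misfolded proteins, and the sensors of the unfolded protein response. They were taken as a list of gene names with no threshold on a value, though earlier results of these data were known when the list was made, and all 35 were found among the 14005 listed genes. All 35 also passed the filter on low values, a mean of at least 10 normalized counts, which left 13977 genes to test. The cells were BMDM, that is, macrophages cultured from mouse bone marrow, and their polyA-selected RNA was sequenced. In the first group, labelled Txn1 KO, the genotype combined the Txn1 allele Txn1tm1.1Ees/J with B6.129P2-Lyz2tm1(cre)lfo/J, in which Cre recombinase is inserted into Lyz2, so that Cre is made where the lysozyme gene Lyz2 is active, mainly in myeloid cells. The second group was wild type (WT). Both groups had 3 libraries, the strain background C57BL/6J and the sex label pooled male and female. No source used here gives an age. As no Cre-only cells are among the samples, effects of the Cre insertion and of the Txn1 allele cannot be told apart. The stated purpose was to see how losing the thioredoxin-1 protein (TRX1), the main cytosolic disulfide reductase, changes NLRP1 inflammasome genes.

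Proteins that enter the ER fold with the help of chaperones such as BiP and GRP94, and their cysteines are joined by protein disulfide isomerases, relatives of thioredoxin that pass electrons to the ER oxidases. The ER lumen is oxidizing, in contrast to the cytosol, where thioredoxin-1 keeps thiols reduced. When unfolded proteins build up, the sensors IRE1, PERK and ATF6 raise the expression of chaperones and of the degradation machinery. XBP1 and ATF6 bind ER stress response elements in the promoters of those genes.

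Promoters are shown first because this element is what the best known ER chaperone genes share. The sequences are RefSeq windows on GRCm38.p6, 250 bases before to 50 bases after an annotated start, and 30 of the 35 genes matched, 2 of them through a synonym (Ero1l and Ero1lb, listed as Ero1a and Ero1b). Hyou1, Manf, Atf6, Erp29 and Tmx3 were not matched. The motifs searched on both strands were ERSE (CCAAT, 9 bases of any kind, then CCACG), ERSE-II (ATTGG, 1 base, then CCACG) and the core of the UPRE (TGACG followed by TGG). ERSE was found in 9 of the 30 genes (30%), against 37 of 27025 genes with a promoter in the table (0.137%). ERSE-II was found in 2 of the 30 (6.67%, against 0.0444% of all genes) and the UPRE core in 2 (6.67%, against 0.714%). The list was picked by name from the kind of genes known to share these elements, so these shares describe the list. They were not tested and are no separate result. In the windows printed here the matches do not overlap each other. The 5 windows below were chosen from genes whose changes are compared further on: 4 that rose in the libraries labelled Txn1 KO and Hspa5, which did not pass the test. Capitals mark ERSE or, in Herpud1, ERSE-II, and each is written 5′ to 3′ on the strand of the gene.
Hsp90b1: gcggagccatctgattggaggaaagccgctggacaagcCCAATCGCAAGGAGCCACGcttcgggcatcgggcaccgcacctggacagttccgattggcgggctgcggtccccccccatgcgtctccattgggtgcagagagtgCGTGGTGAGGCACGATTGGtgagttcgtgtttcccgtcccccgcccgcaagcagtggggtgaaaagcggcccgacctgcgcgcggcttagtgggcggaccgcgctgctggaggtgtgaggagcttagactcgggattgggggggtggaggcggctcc
Syvn1: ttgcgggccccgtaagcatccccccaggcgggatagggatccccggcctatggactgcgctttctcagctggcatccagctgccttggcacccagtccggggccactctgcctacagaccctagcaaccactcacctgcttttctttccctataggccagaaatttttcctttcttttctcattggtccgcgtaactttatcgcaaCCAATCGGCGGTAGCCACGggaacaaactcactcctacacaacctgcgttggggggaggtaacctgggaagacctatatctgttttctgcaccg
Dnajc3: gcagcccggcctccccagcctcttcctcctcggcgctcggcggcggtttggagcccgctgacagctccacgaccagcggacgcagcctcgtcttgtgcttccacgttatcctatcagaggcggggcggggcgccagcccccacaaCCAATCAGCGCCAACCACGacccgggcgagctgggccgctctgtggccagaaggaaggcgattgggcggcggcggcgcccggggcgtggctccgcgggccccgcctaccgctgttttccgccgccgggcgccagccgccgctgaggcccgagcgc
Herpud1: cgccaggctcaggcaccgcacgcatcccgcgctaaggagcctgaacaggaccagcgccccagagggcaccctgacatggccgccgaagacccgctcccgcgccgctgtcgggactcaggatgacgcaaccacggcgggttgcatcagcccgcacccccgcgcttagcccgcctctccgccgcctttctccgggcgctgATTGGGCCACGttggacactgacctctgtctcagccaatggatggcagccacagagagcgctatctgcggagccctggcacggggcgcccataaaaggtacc
Hspa5: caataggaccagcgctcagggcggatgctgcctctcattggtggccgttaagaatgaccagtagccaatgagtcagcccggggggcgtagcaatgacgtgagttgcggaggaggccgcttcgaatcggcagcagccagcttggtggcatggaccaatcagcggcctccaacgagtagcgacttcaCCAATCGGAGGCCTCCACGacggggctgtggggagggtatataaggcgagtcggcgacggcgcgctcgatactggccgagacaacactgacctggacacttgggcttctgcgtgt
The windows lie at chr10:86705395-86705694 (minus strand, Hsp90b1), chr19:6046326-6046625 (plus, Syvn1), chr14:118937682-118937981 (plus, Dnajc3), chr8:94386179-94386478 (plus, Herpud1) and chr2:34771840-34772139 (plus, Hspa5). The Hsp90b1 window holds 2 matches, which begin 212 and 107 bases before the start. The other matches begin 44 (Syvn1), 105 (Dnajc3), 52 (Herpud1) and 65 (Hspa5) bases before it.

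Whole reads recovered from the deposited values numbered 22508616 to 31127228 in the libraries labelled Txn1 KO and 29716640 to 38726953 in WT. Lyz2 had 1775 to 4327 normalized counts in the libraries labelled Txn1 KO, against 361315 to 368284 in WT, and so followed the labels. Txn1 itself had 12695, 11963 and 12389.5 normalized counts in the libraries labelled Txn1 KO, against 13176, 12155 and 12409 in WT. Its log2 change of -0.03 ± 0.037 (SE; limma adjusted p = 0.686) checks nothing about a deletion, since the values are sums over the gene and no source used here names the deleted part. Txnrd1, the cytosolic reductase of thioredoxin, averaged 15894 ± 194 normalized counts in the libraries labelled Txn1 KO and 9649 ± 152 in WT (SD, n = 3 each), a log2 change of 0.72. Transcripts of hepatocyte markers stood out in 2 libraries, 1 per group. Alb had 580 normalized counts in the library labelled Txn1 KO 3 and 643 in WT replicate 1, and at most 0.838 in the other 4. Macrophage markers such as Csf1r (51611 to 52599 in the libraries labelled Txn1 KO, 49624 to 51976 in WT) were high in every library.

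Between the libraries labelled Txn1 KO and WT, 12 of the 35 ER folding genes passed the test, 9 upward and 3 downward, and 23 did not pass (limma on log2(normalized count + 1), Benjamini-Hochberg adjusted p under 0.05 over all tested genes). The changes were small. The largest rise was that of Ern1, the gene of the sensor IRE1, at 1.24-fold, and the largest fall that of Txndc12, an ER thioredoxin-like protein, to 0.852 of WT. The 9 rises were those of the chaperone genes Hsp90b1, Hyou1, Dnajb9, Manf and Dnajc3, the isomerase gene Pdia4, the degradation genes Syvn1 and Herpud1, and Ern1. The falls were those of Txndc12, Erp29 and Crebrf.

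Over all tested genes 21.5% were called, with 11.5% higher and 9.97% lower. The members are mostly abundant, and abundant genes were called more often: 34 of the 35 had a mean of at least 800 normalized counts, and of the 5880 genes at that level 32.2% were called, 15.9% higher and 16.3% lower. Against this the members' 12 of 35 (34.3%) is near the share of equally abundant genes, with 9 (25.7%) higher and 3 (8.57%) lower. The median log2 change of the members was 0.07, against -0.005 over all tested genes and -0.008 over the abundant ones. The groups did not overlap for 23 members, with the libraries labelled Txn1 KO above WT in 18 and below in 5, against 36.2% of all tested genes (18.5% higher, 17.6% lower) and 47.5% of the abundant ones. The mean of 800 was chosen after the values were seen. Nothing in the labels ties the libraries to different mice or dishes, so each p rests on a spread between libraries that may be technical.

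**Figure D1:**
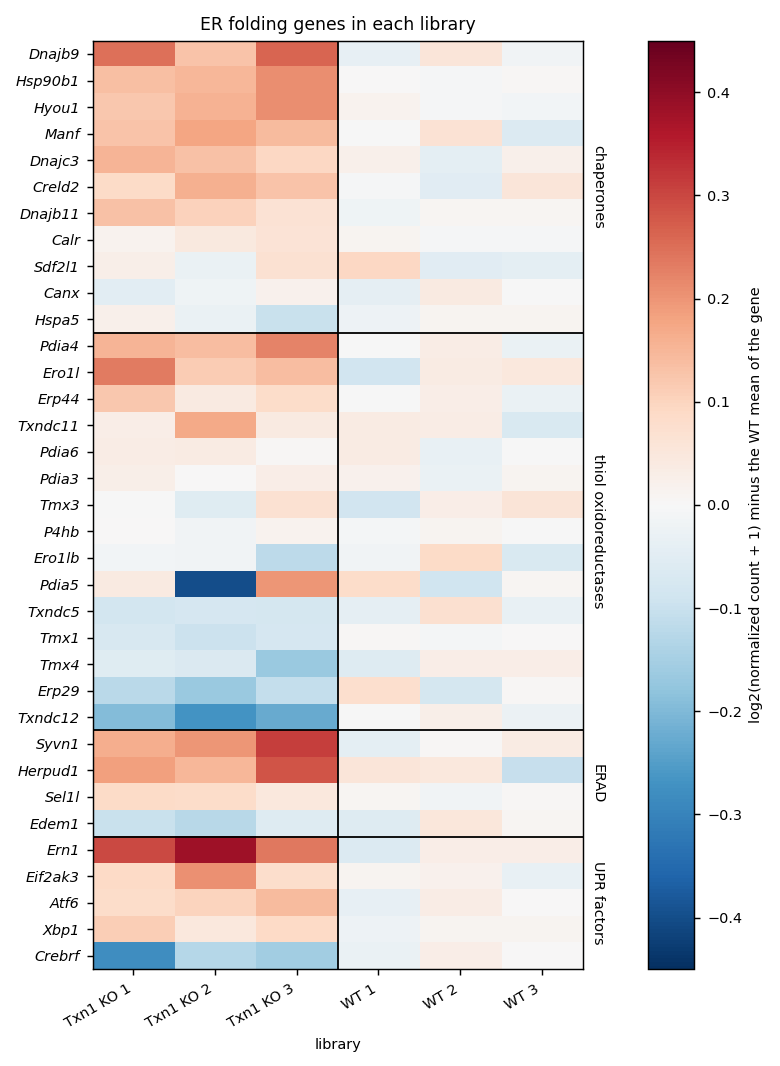
Level of each of the 35 genes (rows, grouped by role; ERAD is ER-associated degradation, UPR the unfolded protein response) in each library (columns; 3 labelled Txn1 KO, then 3 WT) as the difference of log2(normalized count + 1) from the gene's WT mean. The 5 called chaperone genes, Pdia4, Syvn1, Herpud1 and Ern1 are red in all 3 libraries labelled Txn1 KO, and Txndc12, Erp29 and Crebrf are blue in all 3.

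Of the 11 chaperones and co-chaperones, 5 rose and 6 did not pass. GRP94 and BiP, both among the most abundant, stood on different sides of that line. Hsp90b1, which encodes GRP94, the ER form of HSP90, had 20946, 21150 and 22063 normalized counts in the libraries labelled Txn1 KO, against 19079, 19001 and 19116 in WT. All 3 values lay above every WT value (1.12-fold; log2 0.17 ± 0.032, SE, limma adjusted p = 0.000965). Of the exon bases of Hsp90b1 on chromosome 10 (86690209 to 86705509, minus strand, GRCm38), 10.3% also belong to a pseudogene on the other strand, 1810014B01Rik, whose own level was 75.8 normalized counts in the libraries labelled Txn1 KO and 67.9 in WT. Hspa5, which encodes BiP, the ER form of HSP70 and the usual marker of the unfolded protein response, had 22782, 21990 and 20943 normalized counts in the libraries labelled Txn1 KO, against 22066, 22601 and 22628 in WT. The groups overlapped (log2 -0.04, 95% interval -0.11 to 0.04, limma adjusted p = 0.542). In ratio terms that interval runs from 0.928 to 1.03 of WT, and the rise of Hsp90b1 lies outside it.

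The ratio of Hsp90b1 to Hspa5 within a library was 0.919, 0.962 and 1.05 in the libraries labelled Txn1 KO and 0.865, 0.841 and 0.845 in WT. All 3 ratios were above the WT ones, most of all in the library labelled Txn1 KO 3, where Hsp90b1 was highest and Hspa5 lowest. On the log2 scale the ratio was higher by 0.20, with an exact two-sided permutation p of 0.1, the smallest that 3 against 3 libraries can give. This was 1 of 4 ratios compared, picked after the values were seen, and all 4 gave 0.1, also when adjusted over the 4. Each of the 4 set a gene that rose over a gene that did not pass, so these p-values are no separate support for a difference. Both genes carry ERSE in the windows printed above, with 2 exact matches in Hsp90b1 and 1 in Hspa5. Near matches were not searched for, and a link between the number of matches and the change was not tested.

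Hyou1, which encodes GRP170, a nucleotide exchange factor of BiP, had 5081, 5206 and 5393 normalized counts in the libraries labelled Txn1 KO, against 4723, 4653 and 4633 in WT (log2 0.16 ± 0.036, limma adjusted p = 0.00317). Dnajb9, which encodes ERdj4, a J protein that brings BiP to IRE1 and to misfolded clients, had 1368, 1258 and 1381, against 1121, 1194 and 1139 in WT (log2 0.21 ± 0.053, limma adjusted p = 0.00739). Neither gene's groups overlapped. Manf, which encodes a secreted ER factor that binds BiP, had 3958, 4096 and 3993 normalized counts in the libraries labelled Txn1 KO and 3614, 3788 and 3469 in WT (log2 0.15 ± 0.040, limma adjusted p = 0.0124). Dnajc3, which encodes the J protein p58IPK, had 2958, 2914 and 2836, against 2702, 2575 and 2697 in WT (log2 0.13 ± 0.040, limma adjusted p = 0.0304). In both genes the lowest library labelled Txn1 KO stood above the highest WT library, by a narrow margin. The calls of Manf and Dnajc3 were lost without WT replicate 3 (limma adjusted p = 0.0915 and 0.0655). That of Manf was also lost without the library labelled Txn1 KO 2 (0.0582). Dnajc3 lost its call without 3 other libraries (WT replicate 2, and those labelled Txn1 KO 1 and 2; 0.0823 to 0.120) and with the replicate number as a block (0.0567).

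The other 6 chaperone genes did not pass. Dnajb11, which encodes the J protein ERdj3, had 4960, 4870 and 4743 normalized counts in the libraries labelled Txn1 KO and 4467, 4563 and 4560.4 in WT (log2 0.10, limma adjusted p = 0.0519). Its call lay at the threshold: it passed without the library labelled Txn1 KO 3 (0.0307), without both libraries with hepatocyte transcripts (0.0445) and when genes under a mean of 50 were left out (0.0434). Creld2, an ER stress-responsive gene, differed by 0.12 (log2, 95% interval 0.02 to 0.23, limma adjusted p = 0.0931) with groups that did not overlap. Calr, which encodes the lectin chaperone calreticulin and was the most abundant member per exon length, differed by 0.04 (-0.02 to 0.10). Canx, calnexin, its membrane-bound relative, differed by -0.02 (-0.09 to 0.05), and Sdf2l1, a partner of the ER J proteins, by 0.02 (-0.07 to 0.12). For Calr, Canx and Sdf2l1 these intervals leave out a 1.12-fold rise such as that of Hsp90b1.

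**Figure D2:**
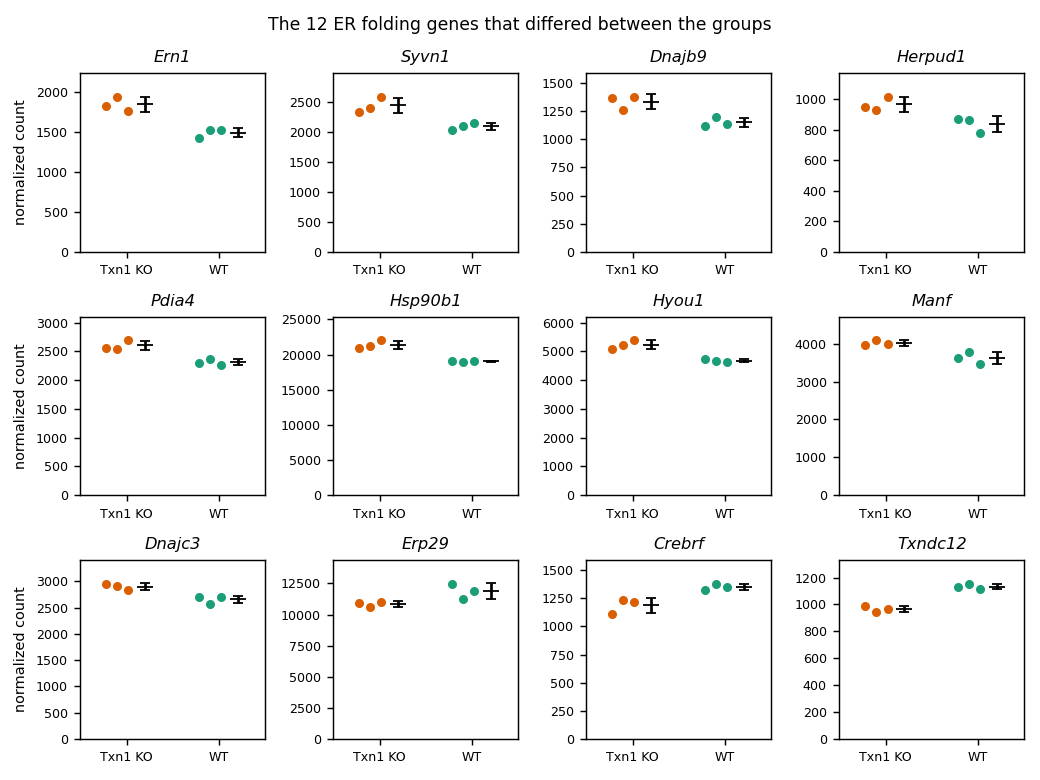
Normalized counts (vertical axes, from 0) of the 12 called genes in each library, with the libraries labelled Txn1 KO on the left and WT on the right of each panel; points are libraries and the black bar is the mean ± SD (n = 3). The groups do not overlap in any of the 12 panels, and the differences run from 1.24-fold (Ern1) to 0.852 of WT (Txndc12).

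The 15 thioredoxin-fold oxidoreductases and their oxidases showed no common direction: 1 rose, 2 fell, 12 did not pass, and the median log2 change was 0.0003. Pdia4, which encodes ERp72, an isomerase with more thioredoxin-like domains than P4hb, rose. It had 2565, 2542 and 2696 normalized counts in the libraries labelled Txn1 KO, against 2304, 2360.05 and 2256 in WT (log2 0.17 ± 0.041, limma adjusted p = 0.00591). P4hb, the founding protein disulfide isomerase, had 16627, 16393 and 16769, against 16475, 16740.2 and 16563 in WT. Its groups overlapped throughout, and the log2 difference of 0.00 had an interval of -0.06 to 0.06, or 0.957 to 1.05 of WT. The ratio of Pdia4 to P4hb was 0.154, 0.155 and 0.161 in the libraries labelled Txn1 KO, against 0.140, 0.141 and 0.136 in WT. Its exact permutation p of 0.1 was the smallest possible, for a pair picked after the values were seen. Pdia3, the glycoprotein isomerase ERp57, and Pdia6, an isomerase that acts on IRE1, were also close to WT, at 0.02 each with intervals of -0.05 to 0.08 and -0.05 to 0.10.

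Txndc12, which encodes a small ER protein with a single thioredoxin fold, fell. It had 989, 941 and 969 normalized counts in the libraries labelled Txn1 KO, against 1132, 1156 and 1113 in WT (log2 -0.23 ± 0.051, limma adjusted p = 0.00318). All 3 libraries labelled Txn1 KO were below every WT library. The gene lies on chromosome 4 (108834601 to 108862127, plus strand, GRCm38), 50.9 Mb from Txn1 on the same chromosome. Erp44, a thioredoxin-fold protein that retrieves ER clients, lies 9.71 Mb from Txn1 and did not pass (log2 0.08, limma adjusted p = 0.202). Hsp90b1 lies 30.6 Mb from Lyz2.

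Erp29, a chaperone with a thioredoxin fold but no redox-active cysteine pair, had 10908, 10571 and 11017 normalized counts in the libraries labelled Txn1 KO and 12493, 11231 and 11911 in WT (log2 -0.13 ± 0.038, limma adjusted p = 0.0203). The groups stood apart, with an SD of 232 normalized counts in the libraries labelled Txn1 KO and 631 in WT. The call was lost without WT replicate 1 (0.0931), WT replicate 3 (0.0810), or the library labelled Txn1 KO 1 (0.0516) or 2 (0.0946). Of its annotated exon bases 24.4% also belong to Naa25 on the other strand, whose log2 change was -0.04. Whether reads were counted by strand is stated in no source used here, so reads of both genes cannot be told apart there and the value of Erp29 is uncertain.

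The ER oxidases pass electrons from the isomerases to oxygen. Ero1l, the more widely expressed of the pair, had 1094, 1008 and 1026 normalized counts in the libraries labelled Txn1 KO, against 878, 956 and 963 in WT. The groups did not overlap, yet the test was not passed (log2 0.16, 95% interval 0.04 to 0.28, limma adjusted p = 0.0551; 0.0469 when genes under a mean of 50 were left out). Ero1lb had 982, 979.8 and 914, against 979, 1051 and 946 in WT, with overlapping groups (log2 -0.05, limma adjusted p = 0.615). Among the membrane-bound thioredoxin relatives Tmx1, Tmx3 and Tmx4 the log2 differences were -0.08, 0.01 and -0.10, and none passed. Txndc5, Txndc11 and Pdia5 differed by -0.08, 0.08 and -0.05. Pdia5 was the least abundant member at 110 ± 22.6 normalized counts in the libraries labelled Txn1 KO and 113 ± 6.78 in WT (SD, n = 3 each), and its interval of -0.40 to 0.29 takes in most of the changes seen in other members.

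**Figure D3:**
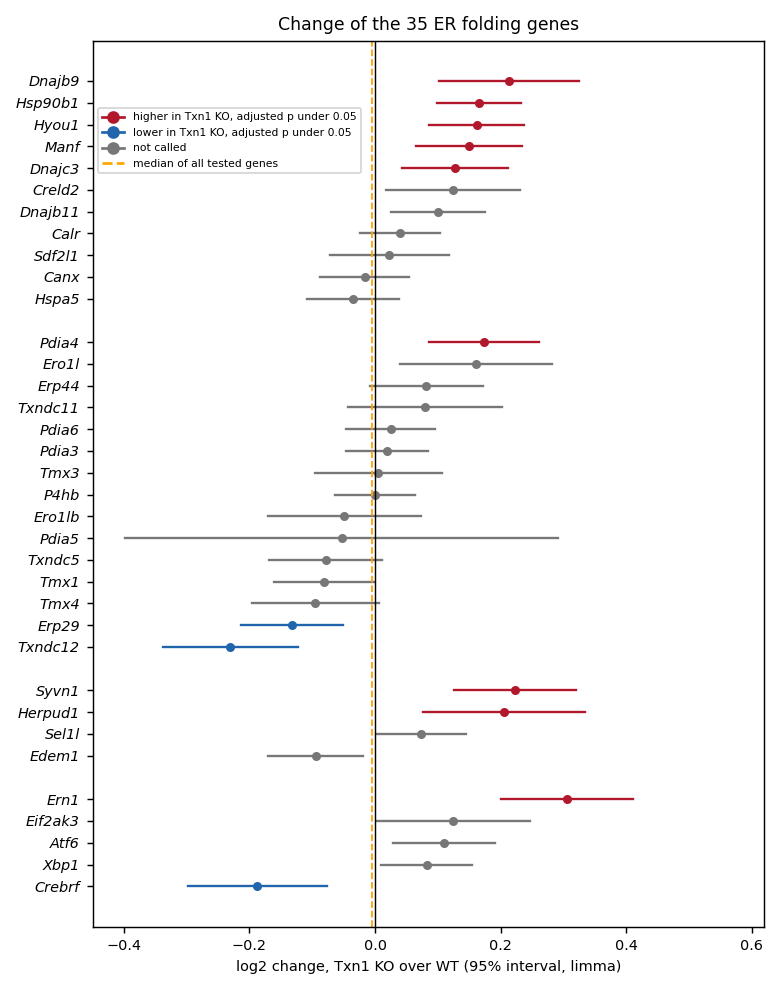
Log2 change (horizontal axis, libraries labelled Txn1 KO over WT) with its 95% interval for the 35 genes, from top to bottom the chaperones, the thiol oxidoreductases, the degradation genes and the sensors and factors, each ordered by change; red and blue mark calls, gray no call, and the dashed line is the median of all tested genes. Each of the 4 roles has changes on both sides of 0: positive in 9 of 11 chaperones, 8 of 15 oxidoreductases, 3 of 4 degradation genes and 4 of 5 sensors and factors. Over all tested genes 6852 of 13977 changes were positive, and 2817 of 5880 among genes with a mean of at least 800 normalized counts. Differences between the roles were not tested.

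ER-associated degradation returns misfolded proteins to the cytosol for the proteasome, and SYVN1 (HRD1) is its main ubiquitin ligase in the ER membrane. Of the 4 members, 2 rose and 2 did not pass. Syvn1 had 2332, 2390.2 and 2584 normalized counts in the libraries labelled Txn1 KO, against 2024, 2092 and 2140 in WT (1.17-fold; log2 0.22 ± 0.046, limma adjusted p = 0.00195). Herpud1, which encodes HERP, a component of the same complex, had 951, 928 and 1017, against 869, 864 and 779 in WT (log2 0.21 ± 0.061, limma adjusted p = 0.0226). Both genes were higher in all 3 libraries labelled Txn1 KO, though the Herpud1 call was lost without the library labelled Txn1 KO 3 (0.0750) and without WT replicate 3 (0.139). Sel1l, the adaptor that stabilizes SYVN1, had 5395, 5388 and 5258, against 5117, 5029 and 5105 in WT (log2 0.07, limma adjusted p = 0.147). The ratio of Syvn1 to Sel1l was 0.432, 0.444 and 0.491 in the libraries labelled Txn1 KO, against 0.395, 0.416 and 0.419 in WT. Its exact permutation p of 0.1 was the smallest possible, for a pair picked after the values were seen.

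Edem1, which encodes a lectin that hands glycoproteins to degradation, pointed the other way. It had 10379, 10199 and 10703 normalized counts in the libraries labelled Txn1 KO and 10694, 11520.5 and 11194 in WT, so that the groups just overlapped (log2 -0.09, limma adjusted p = 0.0704). It passed the test, downward, without WT replicate 1 (0.0237), without the library labelled Txn1 KO 3 (0.0326) and without both of these libraries, the ones with hepatocyte transcripts (0.00229).

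Of the 3 sensors, Ern1 passed the test, and Atf6 and Eif2ak3 did not. Ern1 encodes IRE1, the kinase and nuclease that splices Xbp1 mRNA. The gene lies on chromosome 11 (106394650 to 106487852, minus strand, GRCm38). It had 1823, 1938 and 1754 normalized counts in the libraries labelled Txn1 KO, against 1424, 1518 and 1517 in WT (log2 0.31 ± 0.050, limma adjusted p = 0.000215). Its lowest library labelled Txn1 KO was well above the highest WT library. Eif2ak3, which encodes PERK, the kinase that slows translation, had 846, 918 and 841, against 803, 807 and 778 in WT (log2 0.12, 95% interval 0.00 to 0.25, limma adjusted p = 0.146). Atf6, the membrane-tethered transcription factor, had 3276, 3319 and 3417, against 3016, 3169 and 3096 in WT (log2 0.11, 0.03 to 0.19, limma adjusted p = 0.0526; 0.0439 when genes under a mean of 50 were left out). The groups did not overlap for any of the 3. The ratio of Ern1 to Eif2ak3 was 2.15, 2.11 and 2.08 in the libraries labelled Txn1 KO, against 1.77, 1.88 and 1.95 in WT. Its exact permutation p of 0.1 was the smallest possible, for a pair picked after the values were seen.

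Xbp1, the transcription factor gene whose mRNA IRE1 splices, had 6058, 5803 and 5978 normalized counts in the libraries labelled Txn1 KO and 5533, 5658 and 5660 in WT. The groups did not overlap, but the log2 difference of 0.08 (0.01 to 0.15) did not pass (limma adjusted p = 0.103). The values sum over the gene and cannot tell spliced from unspliced Xbp1. Crebrf, which encodes a repressor of the ER stress factor CREB3, fell. It had 1114, 1238 and 1215 normalized counts in the libraries labelled Txn1 KO, against 1324, 1382 and 1354 in WT (log2 -0.19 ± 0.052, limma adjusted p = 0.0159). The groups did not overlap, and the call was lost without the library labelled Txn1 KO 1 (0.0920), WT replicate 2 (0.0633) or WT replicate 3 (0.0600).

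Per kilobase of annotated exon the members differed widely in level. In mean normalized counts per kilobase, Calr was highest in WT order (11120.3 in the libraries labelled Txn1 KO, 10821 in WT), followed by P4hb (5801 and 5800), Pdia3 (5788 and 5713), Hspa5 (5180 and 5304) and Hsp90b1 (5304 and 4729). Pdia5 was lowest (39.7 and 40.7), below Txndc11 (113 and 106) and Eif2ak3 (144 and 132). Ern1 (225 and 182) and Atf6 (361.5 and 335) stood below Dnajb9 (524 and 452), the lowest of the chaperones on this scale. Lengths are the union of the exons of all annotated isoforms, so a gene with long, rarely used isoforms is placed lower than by its main isoform. Together the 35 genes took 0.717%, 0.720% and 0.717% of the normalized counts of all listed genes in the libraries labelled Txn1 KO, against 0.696%, 0.703% and 0.700% in WT. The chaperones alone took 0.373%, 0.377% and 0.374%, against 0.356%, 0.361% and 0.358% in WT, and the oxidoreductases 0.237%, 0.235% and 0.236%, against 0.238%, 0.236% and 0.237%. The total of all listed genes includes Lyz2, with 1775 to 4327 normalized counts in the libraries labelled Txn1 KO and 361315 to 368284 in WT. The shares therefore depend in part on Lyz2. As sums, the 35 genes had 215506, 214485 and 217295 normalized counts in the libraries labelled Txn1 KO, against 210861, 211530 and 211329 in WT. These shares and sums describe the libraries and were not tested.

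**Figure D4:**
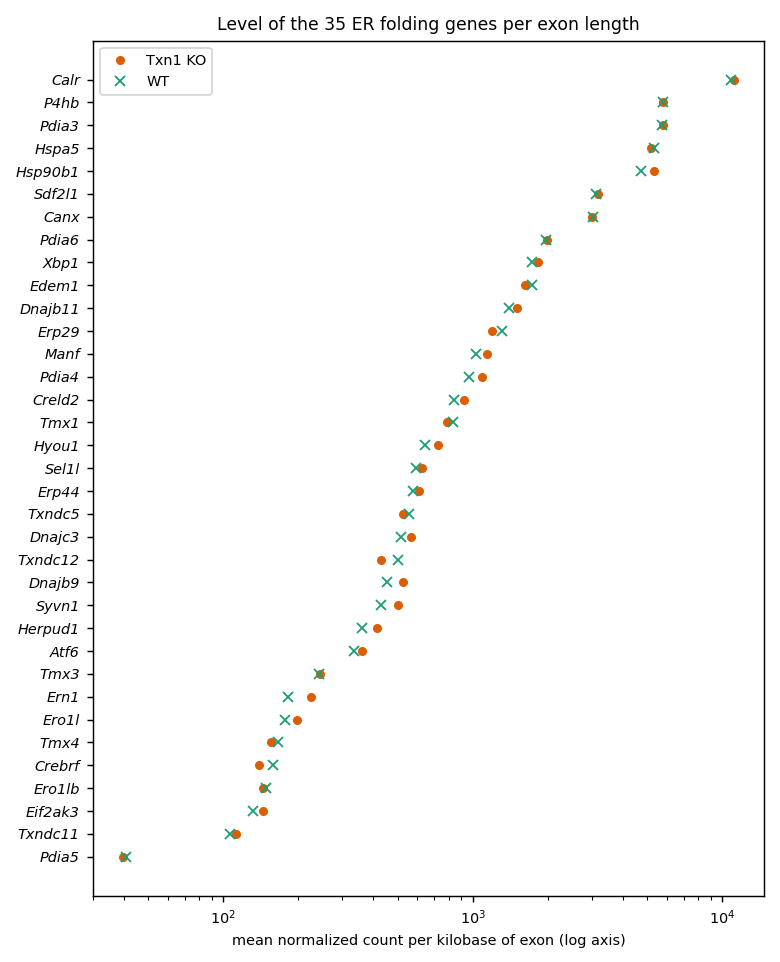
Mean normalized count per kilobase of exon (horizontal, log axis) of each gene in the libraries labelled Txn1 KO (circles) and in WT (crosses), from the most to the least abundant in WT. Calr leads at 11120.3 and 10821 and Pdia5 is last at 39.7 and 40.7.

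Of the 9 members with ERSE, Syvn1, Hsp90b1 and Dnajc3 rose, and Creld2 (log2 0.12), Calr (0.04), Pdia6 (0.02), Canx (-0.02), Hspa5 (-0.04) and Ero1lb (-0.05) did not pass, a median of 0.04. Of the 2 with ERSE-II, Herpud1 rose and Dnajb11 (0.10) lay at the threshold. Among the 19 members whose windows hold neither, 3 rose (Ern1, Dnajb9 and Pdia4) and 2 fell (Txndc12 and Crebrf), with a median of 0.02. Outside the 35 genes, 8 tested genes had ERSE, with log2 changes from -0.18 to 0.60 and limma adjusted p from 0.159 to 0.997. Outside them 6 tested genes had ERSE-II, with a median of -0.12, and 1 of these passed, Krtcap2, a subunit gene of the oligosaccharyltransferase, which fell (-0.21, limma adjusted p = 0.0206). A match to these letters is not shown to be a site in use, and windows without one may hold the element elsewhere.

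In other genes of the ER, chosen by name into 7 lists, most genes did not pass either. Of 25 other chaperones and folding cofactors, 3 rose and 2 fell (median log2 0.01): Lrpap1, the chaperone of LDL receptor family proteins, rose by 0.26 (limma adjusted p = 3.37e-05), while Sil1, an exchange factor of BiP, and Ppib, the ER prolyl isomerase cyclophilin B, fell (-0.28 and -0.19, limma adjusted p = 0.000652 and 0.00105). Sil1 had 1157, 1260.2 and 1182 normalized counts in the libraries labelled Txn1 KO and 1519, 1461 and 1400.2 in WT, and so moved against Hyou1, the other exchange factor of BiP named here. Of 18 other thiol oxidoreductases and partners, 3 rose and 3 fell (median -0.007). The lysosomal thiol reductase gene Ifi30 rose (0.32, limma adjusted p = 4.59e-06), Selenos, which encodes a selenoprotein of the degradation complex, rose (0.22, limma adjusted p = 0.000322), and Qsox1, a sulfhydryl oxidase gene of the secretory pathway, fell (-0.30, limma adjusted p = 0.000272).

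Of 28 other genes of ER-associated degradation, 7 rose and 4 fell (median log2 0.04). Their called share was 39.3%, against 21.5% of all tested genes and 32.2% of those with a mean of at least 800. Edem2, which starts the trimming of mannose on misfolded glycoproteins, had 6713, 6638 and 6846 normalized counts in the libraries labelled Txn1 KO, against 5495, 5524 and 5328 in WT (log2 0.31 ± 0.034, limma adjusted p = 4.00e-06). It rose while its relative Edem1 leaned downward. Ubxn4, an ER anchor of the extraction ATPase VCP, rose by 0.27 and Aup1, a lipid droplet and degradation factor gene, fell (-0.20). Translocation into the ER had 1 rise and 1 fall among 22 genes: Sec61g, a subunit of the translocon, rose by 0.16 (limma adjusted p = 0.0408) and Ssr4, of the associated TRAP complex, fell (-0.15, limma adjusted p = 0.04998) with overlapping groups. N-glycosylation and glycan control had 2 rises and 1 fall among 20, with Mcfd2 and Lman1, which together form an ER export receptor, higher by 0.26 and 0.14, and Krtcap2 lower (-0.21).

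Among 17 other sensors and processing factors of the unfolded protein response 3 rose and 14 did not pass (median log2 0.02). Wfs1, which encodes the ER membrane protein wolframin, had 926, 971 and 1009 normalized counts in the libraries labelled Txn1 KO, against 696, 569 and 671 in WT (log2 0.59 ± 0.072, limma adjusted p = 1.19e-05). Sec24d, a coat protein gene of ER export, rose by 0.33 and Creb3l1, the gene of an ER-bound transcription factor also known as OASIS, by 0.41. Of 18 genes of the PERK branch and of ATF4 and CHOP outputs, 7 rose and 4 fell (median 0.12). The called share was 61.1%, against 21.5% of all tested genes and 32.2% of those with a mean of at least 800. This list also holds Eif2ak1, Eif2ak2 and Eif2ak4, genes of kinases other than PERK. Of these, Eif2ak2 was among the falls (log2 -0.24, limma adjusted p = 0.000982), and Eif2ak1 and Eif2ak4 did not pass. Ddit3, which encodes CHOP, the transcription factor of terminal ER stress, fell to 1727, 1572 and 1650 normalized counts in the libraries labelled Txn1 KO, against 2383, 2213 and 2178 in WT (log2 -0.45 ± 0.049, limma adjusted p = 3.02e-06). Ppp1r15a, the phosphatase subunit that restores translation and a CHOP target, rose to 1771, 1850 and 1853, against 1275, 1421 and 1380.1 in WT (log2 0.43 ± 0.050, limma adjusted p = 7.35e-06). Cebpb rose by 0.75 (limma adjusted p = 5.53e-07), and Atf4, the factor whose translation PERK raises, differed by 0.06 with no call.

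**Figure D5:**
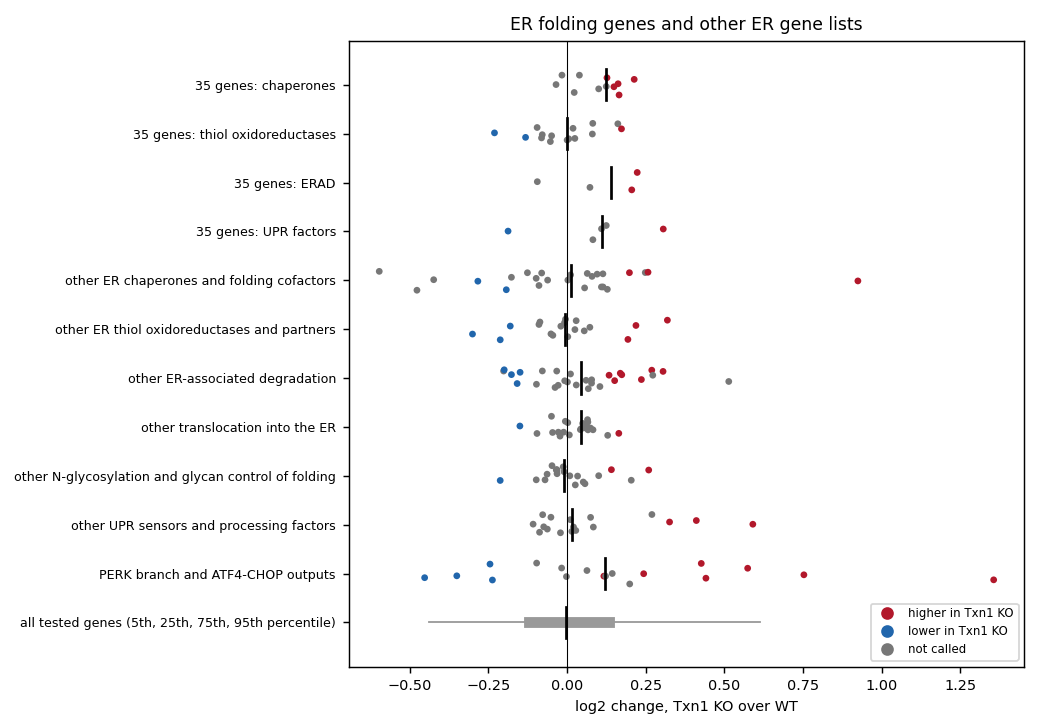
Log2 change (horizontal axis, libraries labelled Txn1 KO over WT) of each gene of the 4 roles among the 35 genes, of the 7 lists of other ER genes and, as percentiles, of all tested genes; points are genes, black ticks list medians, red and blue calls. The members' changes span -0.23 to 0.31, and those of the PERK branch -0.45 to 1.36. The 1.36 is that of Vldlr, a gene of low level with a wide interval (0.42 to 2.29). Vldlr had 16.1 to 35.9 normalized counts in the libraries labelled Txn1 KO and 6.11 to 11.7 in WT. The next highest change in that list is 0.75 (Cebpb).

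Markers of other cell types moved with the groups in part. Of 10 stromal markers all were listed, 6 fell and 4 did not pass, and their summed level was 1284 to 2262 normalized counts in the libraries labelled Txn1 KO and 2764 to 3128 in WT. Plasma cells have an expanded ER. Of 11 B and plasma cell markers 5 were listed, at a summed 4339 to 4582, against 4186 to 4289 in WT, and Pax5, Jchain and Mzb1 were not among the listed genes. Most of that sum was Sdc1, at 3683 to 4005 in the libraries labelled Txn1 KO and 3545 to 3660.1 in WT (limma adjusted p = 0.0828). Ighm, the immunoglobulin heavy chain gene of B cells, had 515 to 584 in the libraries labelled Txn1 KO and 551 to 601 in WT (log2 -0.05, limma adjusted p = 0.706). Hepatocyte markers (4 of 10 listed) summed to 18.5 to 795 in the libraries labelled Txn1 KO, against 13.2 to 866 in WT, high in 1 library of each group. Neutrophil markers (6 of 10 listed) summed to 271 to 336 normalized counts in the libraries labelled Txn1 KO, against 297 to 330.4 in WT. Of these 6, S100a9 and Ngp fell (log2 -0.83 each, limma adjusted p = 0.00783 and 0.0425) and 4 did not pass. Those 4 were Ltf (log2 -1.02), S100a8 (0.16), Mpo (0.76) and Prtn3 (1.02), so the list was split, with 3 positive and 3 negative changes. The single listed T and NK cell marker had 11.5 to 32.5 in the libraries labelled Txn1 KO, against 21.0 to 28.5 in WT, and no erythroid marker was listed. The part of these cells in the changes was not tested. In bulk RNA, fewer cells of a type and less RNA per cell cannot be told apart. Without the 2 libraries with hepatocyte transcripts 14 members were called, 10 higher and 4 lower, among them all 12 called with them, plus Dnajb11 and Edem1.

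Leaving out WT replicate 3 reduced the calls from 12 to 7 of the 35 genes. Those 7, Ern1, Syvn1, Dnajb9, Pdia4, Hsp90b1, Hyou1 and Txndc12, kept their calls under all 17 alternatives run. The authors' deposited table, whose adjusted p-values come from their own processing, calls the same 12 genes in the same directions, as did edgeR and DESeq2 on the recovered reads.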

How the data were processed

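RNA of 6 macrophage libraries was polyA-selected and carried ERCC spike-ins, per the labels' protocols. The submitters' processing notes name the tools STAR 2.5.2b, DESeq2, Trimmomatic 0.36 and bcl2fastq 2.20 and the build GRCm38 (mm10). No source used here names the counter, its strand setting or the annotation. The deposited signal of each gene is the authors' read count over a size factor: 100% of values in each library were whole multiples of its step (0.777 to 1.35 normalized counts per read, tolerance 0.01 reads). A floor of 3 reads equals 2.33 to 4.04 normalized counts and covers counting error only. The authors' deposited table also gives log2 fold changes and adjusted p-values, which served as an alternative. The control columns carry BMDM and a replicate number, which fits no group but WT. The lowest mean among the listed genes was 9.28 normalized counts, and listed genes under a mean of 10 were not tested.

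Normalized values call for no count model, so the main test was limma 3.58.1 (R 4.3.3, trended prior) on log2(normalized count + 1), on which scale all log2 changes are given, without a replicate block. Same-numbered libraries did not deviate together (correlations -0.19, 0.01 and -0.25), so the numbers were not treated as pairs. Differently numbered libraries of the 2 groups gave -0.22 to 0.32. The highest was for the library labelled Txn1 KO 3 and WT replicate 1, the 2 with hepatocyte transcripts. The main fit held no term for a factor shared by these 2 libraries. Other fits used edgeR 4.0.16 (quasi-likelihood, TMM) and DESeq2 1.42.0 on the recovered reads; edgeR called 2969 genes. Within a group, no pair of libraries was a duplicate (chi-square over degrees of freedom 6.09 to 29.0 on recovered reads). Exon lengths and positions came from GENCODE M21 (GRCm38), where all 35 members matched, and promoters from RefSeq (GRCm38.p6). Members and lists were chosen with earlier results of these data known. Named are all members, with library values for called ones and for the main chaperones, oxidases and sensors, and up to 3 called genes per list with the smallest p. Outside that rule, some items were chosen for the text after their values were seen. These were the library values of the members Edem1, Dnajb11 and Sel1l and the ratios between members. The genes Naa25, 1810014B01Rik, Atf4, Vldlr, Eif2ak1, Eif2ak2 and Eif2ak4 were chosen in the same way. So were the markers S100a8, S100a9, Ngp, Ltf, Mpo, Prtn3, Sdc1, Ighm, Pax5, Jchain and Mzb1. Protein sequences were not used here.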

Additional observations from a re-analysis of the deposited data

How the results depend on the processing

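The 17 alternatives (other pseudocounts, filters, scaling and tools, the authors' statistics, a stricter threshold, a replicate block, each library left out, and both libraries with hepatocyte transcripts left out) left the sign of each of the 12 called members as it was, and 7 of the 12 kept their call under all 17. Leaving out 1 library gave 7 to 13 called members (6 to 9 higher, 1 to 4 lower) and 2087 to 2816 called genes overall (1196 to 1513 higher, 891 to 1303 lower), with the lowest counts without WT replicate 3. At an adjusted p under 0.01, 7 members (1 lower) and 1833 genes (1024 higher, 809 lower) were called. With the replicate number as a block, 11 members and 2675 genes were called, and Dnajc3 was the member lost (adjusted p = 0.0567 by limma); the block changed no other member's call. Signs turned for 5 members that were not called. P4hb gave -0.00016 with DESeq2, -0.0011 with TMM scaling, -0.0014 with edgeR, -0.0072 to 0.0091 with 1 library left out and -0.012 without the libraries with hepatocyte transcripts. With 1 library left out, Pdia5 ran from -0.18 to 0.12, Sdf2l1 from -0.0022 to 0.070, Tmx3 from -0.038 to 0.035 and Canx from -0.036 to 0.0047, and Tmx3 gave -0.071 without the libraries with hepatocyte transcripts. The cause was not tested. With 3 libraries a group, the smallest called change of a member was 0.13 (log2, Dnajc3).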
